A study of Mus musculus with 12 samples.

Results

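The 8 genes described here, *Igf1*, *Igf1r*, *Igfbp2*, *Igfbp3*, *Igfbp4*, *Igfbp5*, *Igfbp6* and *Igfbp7*, make up the ligand, the signalling receptor and most of the secreted binding proteins of the insulin-like growth factor (IGF) axis. They were chosen by name, as the rows of the count table that carry these gene symbols, and are 8 of 54446 mouse genes in the table. RNA sequencing was performed on mouse embryonic fibroblasts, which the study's methods give as NIH3T3, an established mouse embryo fibroblast line. All 12 libraries came from cells that had been infected with a lentivirus and selected with puromycin as a pool, and that carry a sequence under a doxycycline (dox)-inducible promoter. The sequence was either N-VEGF, which is the N-terminal stretch of a longer VEGF isoform, or NLS-N-VEGF, that stretch behind the nuclear localization sequence of Cas9, each with a His-tag. The 4 groups of 3 libraries were NLS-N-VEGF without dox, NLS-N-VEGF with dox, N-VEGF without dox and N-VEGF with dox. As no group had dox without a construct, an effect of dox and an effect of the induced protein cannot be told apart. Each group held libraries labelled 1_120519, 2_120519 and 2_290419. The last part of these labels, called the suffix here, reads like a date, and its meaning is not stated, so that suffix _290419 (4 libraries) and suffix _120519 (8 libraries) are compared as labels only. Nothing in the labels says that libraries came from separate cultures, and p-values therefore measure the spread between these libraries, which may be technical.

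IGF1 is a secreted growth factor that binds the receptor tyrosine kinase IGF1R, which signals through insulin receptor substrate adaptors to PI3K and AKT, and AKT keeps the FOXO transcription factors out of the nucleus. The IGF-binding proteins hold IGFs outside the cell and so limit or prolong their access to the receptor, and proteases that cleave the binding proteins release the ligand. Fibroblasts are among the cells of connective tissue that make IGF1 and its binding proteins.

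Total counts lay between 13549331 and 18982127 per library, so that 3 counts, the floor used here for a gene that was not detected, equalled 0.158 to 0.221 counts per 1000000 (CPM). Floors cover counting error only. Counts of the construct insert were 5 to 12 in the 6 libraries without dox and 35 to 268 in the 6 libraries with dox. With dox, in the order 1_120519, 2_120519 and 2_290419, they were 48, 35 and 173 in NLS-N-VEGF and 121, 149 and 268 in N-VEGF libraries, so that the insert was higher in N-VEGF libraries under each label and highest in suffix _290419, and its part in the comparisons of populations and suffixes was not tested. The 12 fibroblast markers summed to 11300 to 13600 CPM in each library, whereas the 6 endothelial markers summed to 2.68 to 4.50 CPM and the 6 epithelial markers to 0.888 to 1.84 CPM. The 6 macrophage markers summed to 31.0 to 39.3 CPM. This was mostly *Cd14* (mean 24.3 CPM), *Csf1r* (7.08 CPM) and *Cd68* (3.69 CPM), while *Lyz2* (0.476 CPM), *Ptprc* (0.0787 CPM) and *Adgre1* (0.00523 CPM) were low. The 6 myogenic markers, of which 2 were at 0 throughout, summed to 0.215 to 1.41 CPM. The 6 adipocyte markers summed to 0.300 to 1.01 CPM in suffix _120519 and to 1.09 to 2.16 CPM in suffix _290419, which was mostly *Fabp4* (mean 0.410 and 1.48 CPM), while *Plin1* (0.149 and 0.112 CPM) was not higher and *Adipoq*, *Cidec*, *Lep* and *Pparg* had at most 1 count in any library. Of the fibroblast markers 4 were higher and 4 lower in suffix _290419. The part of these markers in the results was not tested.

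The members fell into detected and silent genes, and the same split was seen in all 4 groups. *Igf1*, *Igf1r*, *Igfbp4*, *Igfbp6* and *Igfbp7* had counts in all 12 libraries, and these 5 of the 8 members passed the filter on low counts. *Igfbp2*, *Igfbp3* and *Igfbp5* did not. *Igfbp5*, which encodes a matrix-associated binding protein, had 0 counts in all 12 libraries. *Igfbp3*, the main IGF carrier in serum, had 1 count in total, in the N-VEGF dox library 2_290419. *Igfbp2* also had 1 count in total, in the NLS-N-VEGF library 2_120519. At this depth these 3 genes were not detectable above the floor in any group.

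The promoters of *Igfbp6* and *Igfbp7*, which were detected, and of *Igfbp3* and *Igfbp5*, which were not, are printed for comparison of detected with silent binding protein genes. Each window runs from 250 bases before to 50 bases after a RefSeq transcription start in build GRCm38.p6, 5′ to 3′ on the strand of the gene. Capitals mark matches, on either strand, to any of these letters: ACGTG, the core of the hypoxia response element, TATAAA, the TATA box, GGGCGG, the GC box, CCAAT, the CCAAT box, and GTAAACA, a FOXO element.
*Igfbp6*, chr15:102143936-102144235, plus strand: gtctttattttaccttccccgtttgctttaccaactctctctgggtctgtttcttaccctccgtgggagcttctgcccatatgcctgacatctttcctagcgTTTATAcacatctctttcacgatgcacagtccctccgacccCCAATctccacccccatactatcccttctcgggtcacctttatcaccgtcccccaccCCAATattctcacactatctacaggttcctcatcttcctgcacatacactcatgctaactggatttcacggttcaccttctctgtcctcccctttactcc
*Igfbp7*, chr5:77407996-77408295, minus strand: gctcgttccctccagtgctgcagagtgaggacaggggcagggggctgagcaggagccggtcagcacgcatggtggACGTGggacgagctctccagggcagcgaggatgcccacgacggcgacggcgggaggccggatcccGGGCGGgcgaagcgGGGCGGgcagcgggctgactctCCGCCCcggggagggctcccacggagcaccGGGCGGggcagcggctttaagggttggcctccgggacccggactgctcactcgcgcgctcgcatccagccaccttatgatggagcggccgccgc
*Igfbp3*, chr11:7213874-7214173, minus strand: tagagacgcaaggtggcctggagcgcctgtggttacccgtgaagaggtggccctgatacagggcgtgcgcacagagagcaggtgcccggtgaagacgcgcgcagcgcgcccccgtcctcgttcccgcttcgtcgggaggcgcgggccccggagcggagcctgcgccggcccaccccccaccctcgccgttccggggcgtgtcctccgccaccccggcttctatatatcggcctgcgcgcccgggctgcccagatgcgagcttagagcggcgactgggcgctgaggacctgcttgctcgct
*Igfbp5*, chr1:72874816-72875115, minus strand: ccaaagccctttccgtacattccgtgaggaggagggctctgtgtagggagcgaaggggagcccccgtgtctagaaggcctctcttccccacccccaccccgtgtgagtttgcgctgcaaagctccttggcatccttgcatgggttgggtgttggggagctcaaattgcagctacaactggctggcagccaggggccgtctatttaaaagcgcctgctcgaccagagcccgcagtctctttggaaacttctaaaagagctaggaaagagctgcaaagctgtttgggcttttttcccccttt
The *Igfbp6* window held 1 match to TATAAA, which is on the opposite strand and reads TTTATA here, and 2 to CCAAT. The *Igfbp7* window held 4 matches to GGGCGG and 1 to ACGTG. The windows of *Igfbp3* and *Igfbp5* held no exact match to any of the 5 motifs. Near-matches are not marked, and TATA-like stretches are present in both, tatatat in *Igfbp3* and tatttaaaa in *Igfbp5*. Whether any of these stretches or matches is used was not tested. The upstream one of 2 windows of *Igfbp2*, the third silent gene, held 3 matches to GGGCGG and 2 overlapping ones to ACGTG. Among the other detected members, *Igf1r* held 2 matches to GGGCGG, *Igfbp4* 1 to TATAAA and *Igf1* 1 to CCAAT. Over all 32851 promoter windows of 300 bases, ACGTG was present in 19.6%, TATAAA in 13.6%, GGGCGG in 35.7%, CCAAT in 37.4% and GTAAACA in 3.65%. The number of CG dinucleotides did not follow detection, with 8 in *Igfbp6*, 33 in *Igfbp7*, 37 in *Igfbp3* and 10 in *Igfbp5*, where the median of all windows was 7. The *Igfbp6* window ends before the start of the gene in the count table, because RefSeq and the table place its first base differently. The *Igf1r* window (67952007 to 67952306) also ends before the gene start in the table (67952827). The *Igf1* window (87860861 to 87861160) lies inside the gene, which starts at 87858265 in the table.

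Each silent binding protein gene lies beside another binding protein gene in the genome (coordinates of build GRCm38, as in the count table). *Igfbp2* (chromosome 1, 72824503 to 72852474) and *Igfbp5* (chromosome 1, 72857932 to 72874884) are 5457 bases apart and on opposite strands. *Igfbp3* (chromosome 11, 7206086 to 7213923) has *Igfbp1*, a binding protein known from liver, as its neighbour at a distance of 3539 bases, and *Igfbp1* had 3 counts in total. The next protein-coding neighbours were *Tnp1* beyond *Igfbp5*, with 0 counts in all libraries, and *Gm11985* beyond *Igfbp1*, at 0 to 0.161 CPM. The next protein-coding gene on the other side of *Igfbp2*, the ribosomal protein gene *Rpl37a*, was at 352 to 504 CPM, and that on the other side of *Igfbp3*, *Tns3*, was at 103 to 157 CPM, at distances of 110689 and 1217728 bases. The detected binding protein genes *Igfbp4* (chromosome 11, 99041244 to 99054392), *Igfbp6* (chromosome 15, 102144362 to 102149511) and *Igfbp7* (chromosome 5, 77349240 to 77408041) have no other binding protein gene next to them. The ligand and the receptor are at chromosome 10, 87858265 to 87937042 (*Igf1*) and chromosome 7, 67952827 to 68233668 (*Igf1r*). The exons of 7 members overlap no other annotated exon. For *Igfbp7*, 7.03% of the exon length overlaps exons of *Polr2b* on the opposite strand, and since the library kit does not mark strand and the counting option is not stated, reads from the 2 genes cannot be told apart there.

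To compare genes with each other, counts were divided by the summed exon length of the gene and scaled to 1000000 per library (TPM). Because the exon length covers all annotated transcripts, it understates genes with long alternative ends, such as *Igf1r* (16791 bases). On this scale *Igfbp6*, whose protein prefers IGF2 over IGF1, was far above the other members, at 684 to 986 TPM (median 756, 12 libraries). *Igf1r* followed at 20 to 25 TPM, *Igfbp7*, a secreted protein with low affinity for IGFs, at 11.2 to 28.9 TPM, *Igfbp4*, an inhibitor of IGF action, at 6.80 to 11.6 TPM, and *Igf1* at 0.232 to 0.975 TPM. *Igfbp6* exceeded *Igf1r* in 12 of 12 libraries, *Igf1r* exceeded *Igfbp7* in 10 of 12 and *Igfbp7* exceeded *Igfbp4* in 12 of 12. The ranges of *Igf1r* and *Igfbp7* overlapped, and so did those of *Igfbp7* and *Igfbp4*, whereas *Igf1* lay below all other detected members. Transcripts of *Igfbp6* made up 95.7% to 97.8% of the summed TPM of *Igfbp1* to *Igfbp7* in each library, *Igfbp7* 1.38% to 2.92% and *Igfbp4* 0.694% to 1.53%. Against the floor of *Igfbp5* of 3 counts per library, *Igfbp6* was at least 5945-fold higher in every library.

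**Figure D1:**
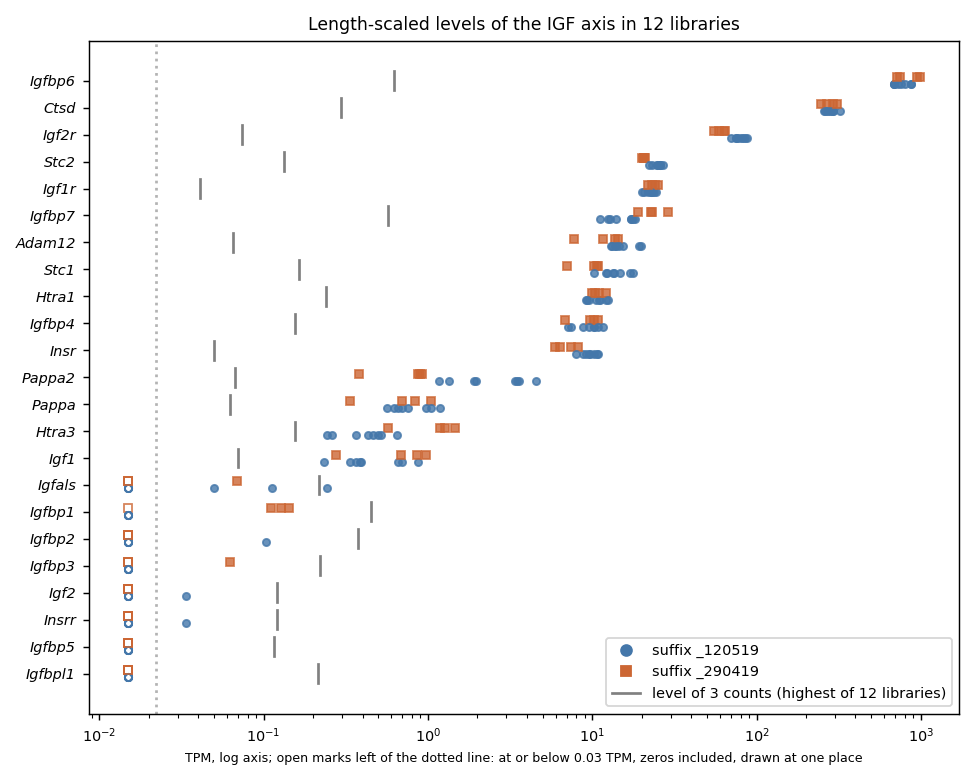
Length-scaled levels (TPM, log axis) of the members, the other ligand, receptor and carrier genes and the proteases of binding proteins, with 1 mark per library and colour by suffix. Grey bars show the level of 3 counts, and open marks at the left stand for levels at or below 0.03 TPM, zeros included; *Igfbp6* lies highest at 684 to 986 TPM and *Igfbp5* is at 0 in all 12 libraries.

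The other ligand, *Igf2*, had 1 count in total. The mannose-6-phosphate receptor *Igf2r*, which takes up IGF2 for degradation and does not signal growth, was at 55.0 to 87.0 TPM, which was 2.53 to 3.74 times the TPM of *Igf1r* in the same library. The insulin receptor *Insr* was at 5.96 to 10.9 TPM, and *Igf1r* was 2.13 to 3.65 times as high. *Igfals*, the subunit that joins IGFBP3 and IGF in serum complexes, had at most 4 counts in any library, and *Igfbpl1* had 0 in all. Among the proteases, the aspartic protease *Ctsd* was highest, at 247 to 321 TPM, and *Adam12*, a membrane metalloprotease that cleaves binding proteins, was at 7.71 to 19.8 TPM. *Pappa*, the metalloprotease that cleaves IGFBP4, was at 0.336 to 1.19 TPM and *Pappa2*, its relative that cleaves IGFBP5, at 0.379 to 4.55 TPM. The PAPP-A inhibitor *Stc2* was at 20.2 to 26.9 TPM and *Stc1* at 7.06 to 17.6 TPM.

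The members differed in how much they varied over the 12 libraries. The coefficient of variation of CPM was 4.53% for *Igf1r*, and 1.98% of the 13608 genes that passed the filter had a smaller one. It was 14.1% for *Igfbp6*, 16.3% for *Igfbp4*, 28.0% for *Igfbp7* and 44.5% for *Igf1*, and the median of all tested genes was 13.1%. Counting error alone gives 2.21% for *Igf1r*, 1.45% for *Igfbp6*, 6.68% for *Igfbp4*, 9.31% for *Igfbp7* and 18.3% for *Igf1* at the mean counts of these genes, which is below the measured spread of each.

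Next, dox was compared with no dox in each population, which asks whether these genes differed once the construct was induced, dox itself included. All p-values that follow are from edgeR's quasi-likelihood test and were adjusted (Benjamini-Hochberg) over the 13608 genes tested, and log2 fold changes are differences of CPM on the log2 scale. In bulk libraries less RNA of a gene per cell and fewer cells that express it cannot be told apart. No member passed an adjusted p of 0.05 in any of the 6 comparisons between groups. The background of calls was also low, with 0.022% of genes called for dox in NLS-N-VEGF cells, 0.0367% for dox in N-VEGF cells and 0.0588% for dox over both populations. In the difference of the dox effects, in NLS-N-VEGF against N-VEGF with dox and in the same comparison without dox, 0% were called (0 of 13608 genes, with 116, 160 and 82 genes at an unadjusted p under 0.05). At an unadjusted p under 0.05, 1 member was found in each of 3 comparisons, dox in N-VEGF cells (201 of all genes), dox over both populations (423) and the difference of the dox effects (116), and none in the other 3, of which dox in NLS-N-VEGF cells had 318 genes. DESeq2 also called 0 members in all 6.

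Libraries with the same replicate label deviated together across groups, and this followed the suffix more than the number, since libraries of suffix _120519 correlated nearly as well with the other number (mean r of deviations 0.47) as with their own (0.52). With the label as a block, calls over all genes rose to 0.125% for dox in NLS-N-VEGF cells, 0.11% for dox in N-VEGF cells, 0.566% for dox over both populations and 0.0147% for NLS-N-VEGF against N-VEGF with dox, and stayed at 0% in the other 2. No member was called with the block either, where 1, 1, 3, 2, 2 and 0 members had an unadjusted p under 0.05, in the order dox in NLS-N-VEGF cells, dox in N-VEGF cells, dox over both populations, the difference of the dox effects, and NLS-N-VEGF against N-VEGF with and without dox. In the same order 989, 735, 1266, 464, 621 and 499 of all 13608 genes had such a p.

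**Figure D2:**
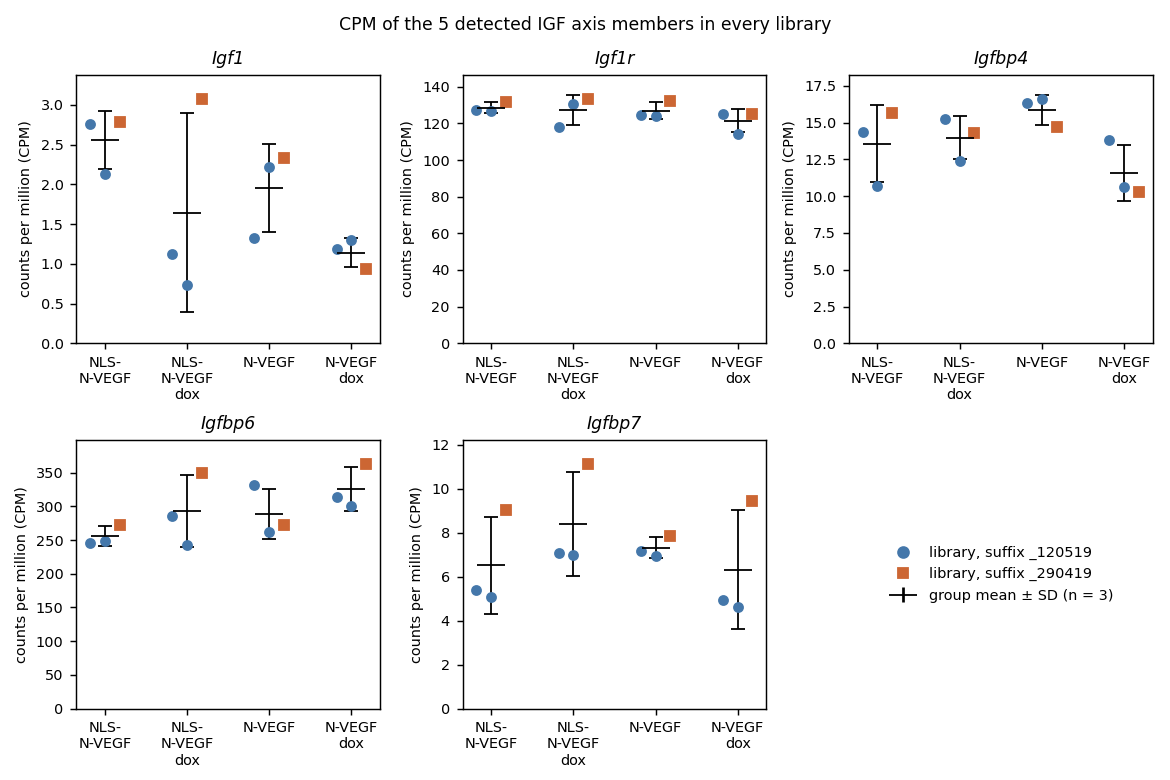
CPM of *Igf1*, *Igf1r*, *Igfbp4*, *Igfbp6* and *Igfbp7* in each of the 12 libraries by group, with linear axes from 0; circles are suffix _120519, squares suffix _290419, and bars the group mean ± SD (n = 3). *Igf1r* stays between 114 and 133 CPM, and the *Igfbp7* squares lie above all of its circles.

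The ligand *Igf1* was the lowest and most variable detected member. In the order 1_120519, 2_120519 and 2_290419, which is kept for all members, NLS-N-VEGF libraries held 2.76, 2.13 and 2.78 CPM before dox and 1.12, 0.735 and 3.07 CPM after it. Both dox libraries of suffix _120519 were below all 3 libraries without dox, and the dox library of suffix _290419 was above them. N-VEGF libraries held 1.32, 2.22 and 2.33 CPM before dox and 1.19, 1.30 and 0.936 CPM after it, and these ranges were apart, by a margin of less than 0.1 CPM. For NLS-N-VEGF the log2 fold change was -0.62 (SE 0.43, adjusted p = 1), for N-VEGF -0.77 (SE 0.45, adjusted p = 1), and for both populations together -0.69 (SE 0.31, 95% interval -1.37 to -0.02, adjusted p = 1 in edgeR). These values rest on 10 to 52 counts per library. Without the NLS-N-VEGF dox library 2_290419 the value in NLS-N-VEGF cells was -1.43 and that over both populations -1.10. The lowest adjusted p over both populations on leaving out any library was 0.483 in edgeR. With the block and all libraries, the value over both populations was -0.70 (95% interval -1.23 to -0.17, adjusted p = 0.348 in edgeR). That interval is without 0, but the difference does not pass the adjustment.

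*Igf1r*, the receptor, was the steadiest member. NLS-N-VEGF libraries held 127, 127 and 132 CPM before dox and 118, 131 and 133 CPM after it. N-VEGF libraries held 125, 124 and 132 CPM before dox and 125, 114 and 125 CPM after it, and the ranges overlapped in both populations. For NLS-N-VEGF the log2 fold change was -0.01 (95% interval -0.18 to 0.15), for N-VEGF -0.06 (-0.23 to 0.10) and -0.04 (-0.16 to 0.08) over both, with an adjusted p of 1 in each by edgeR. NLS-N-VEGF and N-VEGF cells differed by 0.07 (-0.10 to 0.24) with dox and by 0.02 (-0.15 to 0.19) without.

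Levels of *Igfbp4* in NLS-N-VEGF libraries were 14.4, 10.7 and 15.7 CPM before dox and 15.2, 12.4 and 14.3 CPM after it, which overlapped. N-VEGF libraries held 16.3, 16.6 and 14.7 CPM before dox and 13.8, 10.6 and 10.3 CPM after it, and all 3 dox libraries were below all 3 others. *Igf1* and *Igfbp4* were the 2 of 5 tested members whose ranges did not overlap for dox in N-VEGF cells, where the ranges of 3.92% of all tested genes did not overlap. No member's ranges were apart for dox in NLS-N-VEGF cells (9.27% of genes), for NLS-N-VEGF against N-VEGF with dox (6.46%) or for the same without dox (3.28%). The log2 fold change of *Igfbp4* with dox was -0.46 in N-VEGF cells (SE 0.16, 95% interval -0.81 to -0.11, adjusted p = 1 in edgeR) and 0.05 for NLS-N-VEGF (SE 0.16, adjusted p = 1). The difference between these effects was 0.50 (95% interval 0.01 to 1.0, adjusted p = 1 in edgeR). With the block the value in N-VEGF cells was again -0.46 (adjusted p = 0.407 in edgeR), so *Igfbp4* did not pass the test in either fit.

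Levels of *Igfbp6* in NLS-N-VEGF libraries were 245, 249 and 273 CPM before dox and 286, 243 and 349 CPM after it. N-VEGF libraries held 332, 262 and 273 CPM before dox and 314, 301 and 362 CPM after it, and the ranges overlapped in both populations. For NLS-N-VEGF the log2 fold change was 0.19 (SE 0.14) and for N-VEGF 0.17 (SE 0.13), both with an adjusted p of 1 by edgeR, and the difference between them was 0.02 (95% interval -0.39 to 0.44). Over both populations the value was 0.18 without the block (95% interval -0.02 to 0.39). With the block it was again 0.18 (0.03 to 0.32, adjusted p = 0.405 in edgeR), which does not pass the adjustment.

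Levels of *Igfbp7* in NLS-N-VEGF libraries were 5.40, 5.08 and 9.05 CPM before dox and 7.06, 6.98 and 11.1 CPM after it. N-VEGF libraries held 7.16, 6.95 and 7.86 CPM before dox and 4.93, 4.61 and 9.43 CPM after it. In each group the library of suffix _290419 was the highest of the 3. For NLS-N-VEGF the log2 fold change was 0.37 (SE 0.30) and for N-VEGF -0.22 (SE 0.30), and the difference between them was 0.59 (95% interval -0.34 to 1.53, adjusted p = 1 in edgeR). With the block it was 0.64 (95% interval 0.16 to 1.11, adjusted p = 1 in edgeR), an interval without 0 for a difference that does not pass the adjustment. The dox effects with the block were 0.37 in NLS-N-VEGF (0.04 to 0.71, adjusted p = 0.618) and -0.26 in N-VEGF (-0.60 to 0.08, adjusted p = 0.891). NLS-N-VEGF against N-VEGF with dox was 0.42 (-0.24 to 1.07) without the block. With the block this value was 0.43 (0.10 to 0.77, adjusted p = 0.992 in edgeR). Paired by label, the log2 differences with dox were 0.36, 0.42 and 0.28 in NLS-N-VEGF and -0.50, -0.55 and 0.25 in N-VEGF libraries, so that the populations went apart in suffix _120519 and not in suffix _290419. In the 8 libraries of suffix _120519 alone the difference was 0.99 (adjusted p = 0.308 in edgeR).

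**Figure D3:**
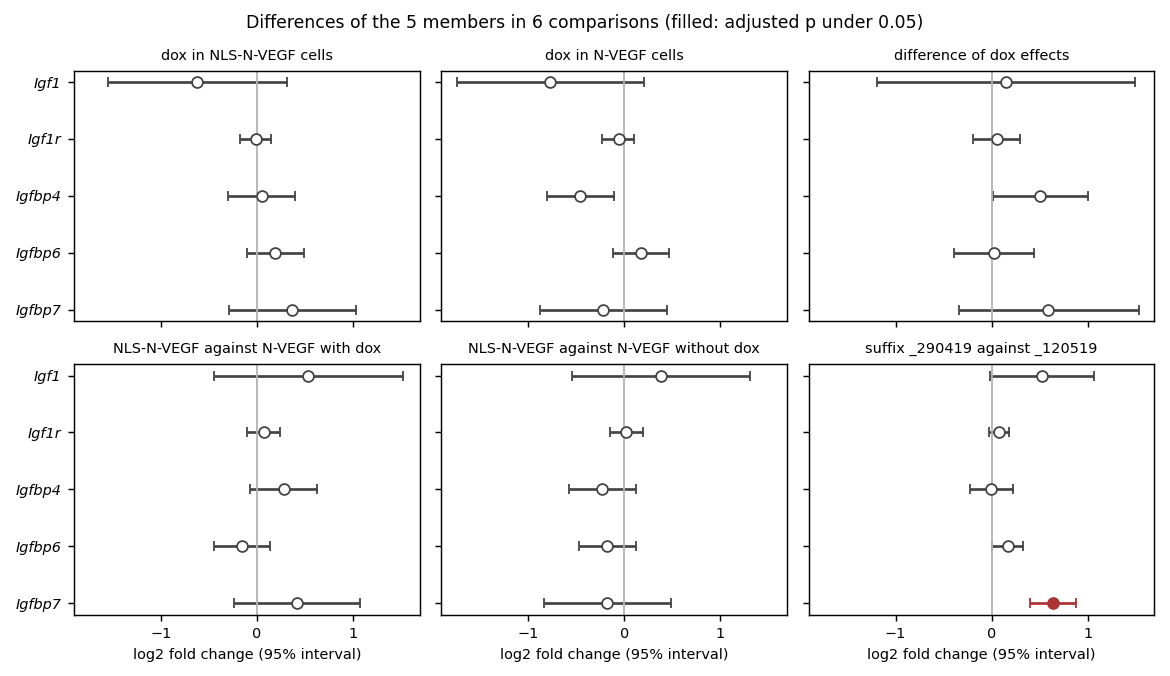
Log2 fold changes of the 5 tested members with 95% intervals in 6 comparisons, from the fits without a block; filled red marks have an adjusted p under 0.05. Intervals of *Igf1r* are the narrowest and those of *Igf1* the widest, and *Igfbp7* between the suffixes, at 0.64, is the filled mark. The suffix panel is from a fit that also holds the suffix, so its interval widths are not comparable with the other panels.

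Far more genes were called between the suffixes than between the groups, where the block fits called at most 0.566%. With the group means held in the model, 45.6% of the tested genes were called between suffix _290419 and suffix _120519, of which 22.2% of all tested genes were higher and 23.5% lower in suffix _290419, and the CPM ranges of 28% did not overlap. Against these background shares, 5 genes are too few to tell the members from other genes. Of the 5 tested members, 1 was called and its ranges did not overlap. This was *Igfbp7*, at 7.86 to 11.1 CPM in the 4 libraries of suffix _290419 (median 9.24) and at 4.61 to 7.16 CPM in the 8 libraries of suffix _120519 (median 6.18). The log2 fold change was 0.64 (SE 0.11, 1.56-fold, adjusted p = 0.000253 by edgeR). It kept its direction and call on leaving out each library (0.53 to 0.80, adjusted p at most 0.00381), but was not called in the 6 libraries without dox (0.47, adjusted p = 0.0806) or in the 6 N-VEGF libraries (0.57, adjusted p = 0.0594 in edgeR). Within the groups the excess of the library of suffix _290419 over the mean of the other 2 was 0.79 in NLS-N-VEGF, 0.66 in NLS-N-VEGF dox, 0.15 in N-VEGF and 0.98 in N-VEGF dox, on the log2 scale. *Polr2b*, whose exons overlap a part of those of *Igfbp7*, was at 143 to 192 CPM and differed by -0.33 (adjusted p = 9.32e-05 in edgeR). How many of the *Igfbp7* counts came from reads of *Polr2b* was not tested.

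The other 4 members were not called between the suffixes. *Igf1r* differed by 0.08 (95% interval -0.03 to 0.18, adjusted p = 0.202 in edgeR), at 125 to 133 CPM in suffix _290419 and 114 to 131 CPM in suffix _120519. *Igfbp4* differed by -0.01 (-0.23 to 0.22, adjusted p = 0.972). *Igfbp6* differed by 0.17 (0.00 to 0.33, adjusted p = 0.0893), and *Igf1* by 0.52 (-0.02 to 1.06, adjusted p = 0.104), at 0.936 to 3.07 CPM against 0.735 to 2.76 CPM. The call of *Igfbp6* depended on single libraries, since without the N-VEGF library 1_120519 it was 0.22 (adjusted p = 0.00181) and without the N-VEGF library 2_290419 it was 0.26 (adjusted p = 0.0172). That N-VEGF library 1_120519 had the fewest detected genes of all libraries (19976, where the others had 20947 to 22889) and the highest *Igfbp6* level among the libraries without dox. Without the NLS-N-VEGF dox library 2_290419 the difference of *Igf1* was 0.12. In the test of whether the dox effect differed between the suffixes no member was called (0 of 5, 1 at an unadjusted p under 0.05, *Igfbp6* with 0.31 and adjusted p = 0.728 in edgeR), and 0% of all genes were called (927 at an unadjusted p under 0.05). DESeq2 called 0 genes there too.

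Around the members, *Insr*, *Igf2r*, most receptor adaptors and most FOXO factors and targets were lower in suffix _290419, and the PI3K and AKT genes were divided. The lists were written from general knowledge with results of these data known, and each count is set against the background of 22.2% higher and 23.5% lower, and each median against 0.01 for all genes. Both of the 2 tested receptors were lower, with *Insr* at 28.1 to 36.0 CPM against 37.3 to 48.0 CPM (log2 fold change -0.45, SE 0.07, adjusted p = 0.000134 in edgeR) and *Igf2r* at 176 to 191 against 221 to 259 CPM (-0.37, SE 0.06, adjusted p = 6.19e-05). Their ranges did not overlap, whereas *Igf1r* was not called. Of 8 tested receptor adaptors, 1 was higher and 5 were lower (median -0.28). The insulin receptor substrates *Irs2* (24.7 to 29.2 against 36.2 to 48.1 CPM, log2 fold change -0.63) and *Irs1* (8.89 to 13.5 against 15.4 to 19.6 CPM, -0.58) were lower, as was *Grb10*, an adaptor that inhibits the receptors (-0.35). *Grb14*, a relative of *Grb10* that inhibits the insulin receptor, was higher, at 90.0 to 96.9 against 36.5 to 55.8 CPM (1.0, adjusted p = 4.92e-08 in edgeR).

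Of the 15 tested FOXO factors and targets, 14 were lower and 1 was higher (median -0.66). The factors *Foxo1* (5.22 to 6.46 against 9.34 to 14.1 CPM, log2 fold change -0.91), *Foxo4* (-0.70) and *Foxo3* (-0.66) were all lower. *Txnip*, an inhibitor of glucose uptake, had the largest difference, at 6.55 to 11.2 against 14.7 to 62.7 CPM (-2.17, SE 0.18, adjusted p = 2.87e-07 in edgeR), followed by *Foxo1* and by *Sesn3*, a stress-induced inhibitor of mTORC1 (-0.85). *Pik3ip1*, an inhibitor of PI3K (-0.70), and *Bcl2l11*, which promotes apoptosis (-0.75), were also lower, and *Cited2*, a transcriptional coregulator, was higher (0.37). Of the 15 PI3K and AKT genes, 1 was higher (*Rheb*, the activator of mTORC1, 0.23) and 7 were lower (median -0.07), of which *Pik3r2*, a regulatory subunit of PI3K (-0.37), and *Phlpp1*, a phosphatase of AKT (-0.34), differed most. Of 15 proliferation genes, 3 were higher and 3 were lower (median 0.05), led by *Rrm2*, a subunit of ribonucleotide reductase (0.29), *Ccnb1* (0.19) and *Cdk1* (0.16) on the one side and *Mki67* (-0.33), *Tyms* (-0.27) and *Mcm2* (-0.16) on the other.

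Genes that act on the binding proteins also differed. Of 8 proteases and their inhibitors, 1 was higher and 4 were lower (median -0.21). *Htra3*, a serine protease, was at 0.873 to 2.07 CPM in suffix _290419 and 0.345 to 0.923 CPM in suffix _120519 (1.37, SE 0.27, adjusted p = 0.000693 in edgeR), and its mean was below 1 CPM. *Pappa2* was at 1.34 to 3.14 against 4.07 to 15 CPM (-1.72, SE 0.21, adjusted p = 9.09e-06), and *Stc1* (-0.50) and *Adam12* (-0.37) followed, while *Ctsd*, at 194 to 258 CPM over all libraries, differed by 0.00. Of 7 proteins with an IGFBP domain in the CCN and related families, 1 was higher and 1 lower (median 0.12), which were *Ctgf*, a matrix protein (103 to 148 against 48.4 to 78.3 CPM, 1.08), and *Wisp1*, its relative (21.6 to 33.9 against 50.7 to 61.8 CPM, -1.08). Of the 3 IGF2 mRNA-binding proteins, *Igf2bp3* was lower (-0.23) and the other 2 were not called (median -0.08).

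**Figure D4:**
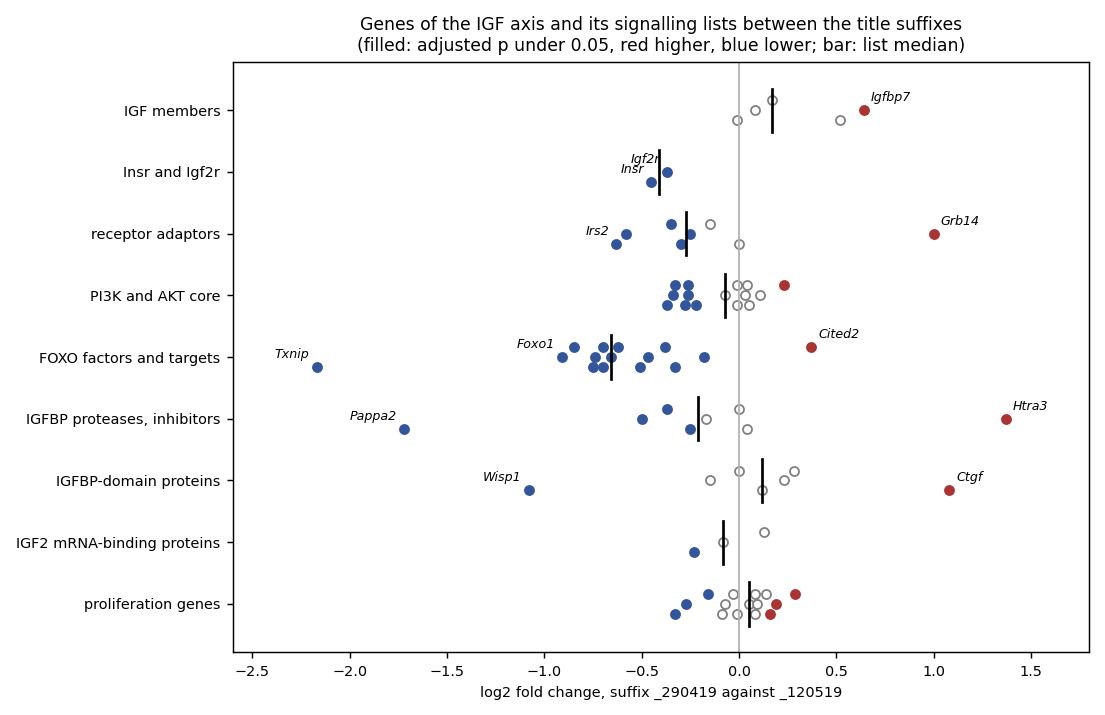
Log2 fold changes between suffix _290419 and suffix _120519 of each tested gene in the member list and 8 other lists, with list medians as bars; filled marks have an adjusted p under 0.05, red higher and blue lower. The FOXO list lies to the left with 14 of 15 genes lower, and *Igfbp7* is the filled mark among the members.

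None of the genes in these lists was called for dox in either population without the block, by edgeR. With the block, *Txnip* fell with dox in NLS-N-VEGF cells (-1.45, SE 0.21, adjusted p = 0.00444) and over both populations (-1.17, SE 0.14, adjusted p = 0.000315). *Pappa2* was lower with dox over both populations (-1.07, SE 0.17, adjusted p = 0.00578), but not under every label. In the order 1_120519, 2_120519 and 2_290419, NLS-N-VEGF libraries held 4.55, 3.38 and 0.871 TPM of *Pappa2* before dox. After dox they held 1.17, 1.34 and 0.92 TPM. N-VEGF libraries held 3.59, 3.5 and 0.891 TPM before dox and 1.91, 1.96 and 0.379 TPM after it. Without the block *Txnip* differed by -1.59 (SE 0.77) in the NLS-N-VEGF population and by -1.27 (SE 0.53) over both populations, and *Pappa2* -1.13 (SE 0.46) over both, each with an adjusted p of 1.

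As a description of co-variation, the genes most like each member over the 12 libraries were listed by Pearson's r of log2 CPM among 11132 protein-coding genes whose mean reached 1 CPM. The points share their libraries, groups and suffixes, and no p is given. Each gene was picked as one of the highest of 11132 values, so a high r follows in part from the choice. The 8 libraries of suffix _120519 are among the 12 used to pick the genes, so their r is no separate check. *Igfbp6* was most like *Tmbim1* (r = 0.91) and *Ehd2* (0.90), with 0.97 and 0.92 in the 8 libraries of suffix _120519 alone. *Igfbp7* was most like *Cmtm7* (0.90) and *Foxm1* (0.90), with 0.74 and 0.71 in the 8 libraries. *Igfbp4* was most like *Map4k1* (0.88, and 0.92 in the 8) and *Sec22c* (0.80 and 0.73), *Igf1* like *Fam229b* (0.86 and 0.86) and *Nlgn2* (0.86 and 0.92), and *Igf1r* like *Zfp408* (0.86 and 0.81) and *Cpa6* (0.85 and 0.85). No member was among these genes.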

How the data were processed

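Total RNA was sequenced as 12 TruSeq RNA v2 libraries with single reads, and raw counts of each gene were deposited. According to the study's methods and the submitters' processing notes, the authors trimmed reads with Trim Galore (cutadapt 1.10), aligned them with TopHat2 2.1.0 (Bowtie2 2.2.6) to GRCm38 with Ensembl annotation and counted reads with HTSeq 0.6.1. The strand option is not given in the sources used here, and the kit does not mark strand. Reads that fall in overlapping exons may be lost or shared.

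Counts were analysed with R 4.3.3 and edgeR 4.0.16 (filterByExpr by group, which kept 13608 genes, TMM scaling, quasi-likelihood F test, 1 mean per group over all 12 libraries, two-sided, Benjamini-Hochberg threshold 0.05). Suffixes were compared with the group means in the model. CPM uses TMM-scaled totals, standard errors were derived from the F statistic, and TPM uses summed exon lengths of GENCODE M21, in which 54409 of 54446 genes were found. Marker sums and CPM of neighbouring genes use unscaled totals. Promoters are from RefSeq (all 8 members matched). The members and lists were chosen with earlier results of these data known, and 134 of 140 list genes were in the table. Named beyond the members were up to 3 called genes in each direction per list with the largest change and a mean of at least 1 CPM, and *Igf2*, *Igf2r*, *Insr*, *Ctsd* and *Adam12*, and 1 called gene that this rule names is not reported here. *Htra3*, below 1 CPM, and *Foxo3*, *Foxo4*, *Pik3ip1*, *Bcl2l11* and the other genes of the axis given by level were named after their values were seen, as was *Polr2b*.

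Deviations from group means (12057 genes of at least 1 CPM) correlated at 0.40 to 0.83 over 18 pairs of libraries with the same replicate label, which was therefore tried as a block. The suffix carried most of this: within suffix _120519, r was 0.40 to 0.69 over 12 pairs of the same number and 0.14 to 0.68 over 12 pairs of different numbers. Over 24 pairs of different suffixes it was -0.76 to -0.35. Values below 0 follow there in part from the method, since deviations from a group mean add up to 0 within the group. The counts of every pair of libraries in a group differed by more than sampling noise, but unevenly. Chi-square per gene between libraries 1_120519 and 2_120519 was 1.76 in NLS-N-VEGF, 5.02 in NLS-N-VEGF dox and 3.09 in N-VEGF dox. In N-VEGF without dox it was 26.6, and there it reached 76.3 between 1_120519 and 2_290419. Alternatives were DESeq2 1.42.0, RLE scaling, other filters, the block, the suffix as covariate, subsets and leaving out each library. The edgeR code was tested on simulated counts.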

Additional observations from a re-analysis of the deposited data

Results flagged for a closer look

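Outlying libraries were looked for in 20 sets, the 5 detected members each over the libraries of 1 suffix and the libraries with or without dox, by Dixon's test at the 95% level, and 2 were found, where chance gives about 1 in 20. *Igf1* was at 3.07 CPM in the NLS-N-VEGF dox library 2_290419, while the other 5 libraries with dox were at 0.735 to 1.30 CPM, a gap of 0.758 of the whole range. *Igfbp6* was at 332 CPM in the N-VEGF library 1_120519, while the other 5 libraries without dox were at 245 to 273 CPM, a gap of 0.684 of the range. Both libraries also decide values given above, the size of the *Igf1* difference with dox and the call of *Igfbp6* between the suffixes, and the cause was not tested.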

How the results depend on the processing

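In the 6 comparisons between groups the count of members called was 0 under all alternatives, which were DESeq2, RLE scaling, both filters, the replicate block, the suffix covariate, the 8 libraries of suffix _120519 and leaving out each library. Between the suffixes the main count of 1 member became 2 with no filter beyond 1 count in any library (*Igf1* was added, 0.49), 2 in the 8 libraries numbered 2 (*Igfbp6*, 0.24), 2 in the 6 libraries with dox, 3 in the 6 NLS-N-VEGF libraries (*Igf1* 0.86 and *Igfbp6* 0.29 were added), and 0 in the 6 libraries without dox (*Igfbp7* 0.47, adjusted p = 0.0806) and in the 6 N-VEGF libraries (*Igfbp7* 0.57, adjusted p = 0.0594). It was 1 to 2 on leaving out each library. The subsets hold fewer libraries. The FOXO list had 12 to 14 lower genes under all alternatives. In the effect of dox by suffix the count was 0 under DESeq2, RLE scaling, both filters and each library left out.

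Directions that turned belong to members that were not called. *Igfbp4* between the suffixes was 0.01 with at least 10 counts in every library, 0.12 in the libraries numbered 2, 0.08 in those without dox and 0.19 in those of NLS-N-VEGF. In the 8 libraries of suffix _120519, *Igfbp7* with dox over both populations was -0.08, *Igf1* in the difference of the dox effects was -0.85 and *Igf1* in NLS-N-VEGF against N-VEGF with dox was -0.38. On leaving out each library, log2 values that turned ranged as follows. For dox in NLS-N-VEGF cells they were -0.05 to 0.04 (*Igf1r*) and -0.10 to 0.16 (*Igfbp4*), and for dox over both populations -0.12 to 0.22 (*Igfbp7*). For the difference of the dox effects they were -0.66 to 0.49 (*Igf1*) and -0.12 to 0.15 (*Igfbp6*). For NLS-N-VEGF against N-VEGF they were -0.28 to 0.87 with dox (*Igf1*) and 0.00 to 0.03 without (*Igf1r*), and between the suffixes -0.12 to 0.06 (*Igfbp4*). For the effect of dox by suffix they were -0.69 to 1.40 (*Igf1*), -0.02 to 0.05 (*Igf1r*) and -0.41 to 0.09 (*Igfbp4*). The cause was not tested, and the lone remaining libraries of a group are assumed to vary like the others.

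Over all genes, calls without a block, with DESeq2 and with the block were 3, 9 and 17 for dox in NLS-N-VEGF cells, 5, 7 and 15 for dox in N-VEGF cells and 8, 16 and 77 over both populations. With no filter they were 53, 36 and 77, with the suffix covariate 15, 13 and 73, and in the 8 libraries of suffix _120519 they were 109, 16 and 135. In the same order of alternatives (no filter, suffix covariate, 8 libraries) the difference of the dox effects had 1, 0 and 4 calls, NLS-N-VEGF against N-VEGF with dox had 9, 2 and 11, and the same without dox had 10, 0 and 5. The effect of dox by suffix had 20 calls with no filter. The suffix comparison had 6207 calls (45.6% of genes), 2902 in the libraries without dox (22.3%), 3278 in those of N-VEGF (25.4%), 5731 in those numbered 2 (41.5%), 4798 in those with dox (36.9%) and 4581 in those of NLS-N-VEGF (35.1%). Depth limits the 3 silent members, for which no fold change is given, and *Igf1*.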
